A study of Mus musculus with 21 samples.

Results

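RNA of cultured Sertoli cells was set against RNA of cultured Leydig cells of the mouse testis, with 3 libraries of each, across all genes that reached 1 FPKM (mapped fragments relative to transcript length and library depth) in at least 3 of these 6 libraries. Of 19285 genes with FPKM values, 11538 met this rule. Both cell types were primary cells isolated from C57BL/6J mice by methods that the submitters cite. They were kept in DMEM/F12 medium with 10% fetal bovine serum, with no transgene or agent named for them, and total RNA was sequenced. The series holds 7 groups of 3 libraries each: besides Sertoli and Leydig cells, testicular peritubular myoid cells (PTM), germ cells, and smooth muscle cells of vessel (VSMC), intestine (ISMC) and trachea (TSMC). The labels do not say that replicates came from separate animals or cultures, so every p-value below rests on the spread of these 6 libraries, and that spread may be technical.

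Sertoli cells form the epithelium inside the seminiferous tubule. They nurse germ cells, seal the tubule with tight junctions, secrete transport proteins and growth factors, and are directed to their fate by the transcription factors Sox9 and Dmrt1. Leydig cells lie between the tubules and turn cholesterol into androgen under luteinizing hormone, with Cyp11a1 cutting the side chain and Hsd3b1 and Cyp17a1 acting after it, and they secrete the peptide hormone Insl3. Both types descend from somatic cells of the gonad that carry Gata4, Wt1 and Nr5a1, and both are isolated from a tissue that also holds contractile myoid cells, fibroblasts, macrophages and vessels.

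The libraries were of like depth, and they did not stand at even distances from each other. The size of 1 read in FPKM gave 20100000 to 21300000 fragments per library, an inference from the values and not a deposited depth. Across the tested genes, Pearson's r of log2(FPKM + 1) was 0.957 to 0.996 among Sertoli libraries, 0.962 to 0.968 among Leydig libraries and 0.848 to 0.877 between the groups, a description across genes that are not independent. Sertoli replicates 1 and 3 differed by 2.38 times the variance that counting alone gives. All other pairs within a group differed by 10.6 to 23.6 times that variance, and pairs across the groups by 41.2 to 50.9 times.

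Sertoli replicate 3 lay between replicates 1 and 2 at an almost fixed position. Of 94 genes in which replicates 1 and 2 differed at least 4-fold with 10 FPKM or more in one of them, replicate 3 was between them in 90, at a median of 15.3% of the way on the FPKM scale from replicate 1 to replicate 2 (quartiles 11.6 and 17.8%). PTM replicate 3 stood likewise between PTM replicates 1 and 2 in 21 of 22 such genes (median 22.4%, quartiles 20.2 and 26.0%). In Leydig cells the middle positions were spread widely (quartiles -2.59 and 55.3% for Leydig replicate 3 between replicates 1 and 2). Whether Sertoli replicate 3 holds RNA independent of the other 2 Sertoli libraries was not tested, and the counts without it are given below.

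A second feature cut across the groups. The ribosomal protein gene Rpl34 had 843, 57.3 and 721 FPKM in Sertoli libraries and 43.4, 673 and 50.7 FPKM in Leydig libraries. Its near-identical copy Rpl34-ps1 had 19.6, 895 and 154 FPKM in Sertoli libraries and 784, 24.6 and 829.8 FPKM in Leydig libraries. Sertoli replicate 1 and Leydig replicate 2 were thus high for the gene, Sertoli replicate 2 and Leydig replicates 1 and 3 for the copy, and Sertoli replicate 3 was closer to replicate 1. The class I gene H2-L, whose presence differs between inbred mouse strains, followed the same split with 5.67, 503 and 87.2 FPKM in Sertoli and 408, 6.6 and 256 FPKM in Leydig libraries. Eno1b, a near-identical copy of the enolase gene Eno1, had 8.52, 524 and 87.4 FPKM in Sertoli and 475, 8.04 and 442 FPKM in Leydig libraries. Ifi202b, an interferon-inducible gene known to differ in level between strains, had 1.28, 73.7 and 13.2 FPKM in Sertoli and 138, 2.19 and 96.3 FPKM in Leydig libraries. Altogether 34 tested genes were at least 2-fold higher, and 15 at least 2-fold lower, in each of the 3 libraries with more Rpl34-ps1 than Rpl34. As such a split makes the groups overlap, limma called 0 of these 49 between Sertoli and Leydig cells (0 at an unadjusted p under 0.05). These genes were named after their values were seen, and for copies of one sequence the reads may be split between them. The labels give 1 strain for all libraries, and whether the libraries differ in strain was not tested. Sertoli replicates 1 and 3 were then set against Leydig replicate 2, and Sertoli replicate 2 against Leydig replicates 1 and 3. All 811 genes called higher and all 834 called lower in Sertoli libraries kept their sign in both comparisons. That was fixed in advance for the 808 and 831 of them whose Sertoli and Leydig libraries did not overlap, so it does not test the calls. The difference was at least 2-fold within both comparisons in 607 of the 811 and 632 of the 834. These genes had been called in the same 6 libraries for a difference of that size, so these counts do not test the calls either.

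**Figure D1:**
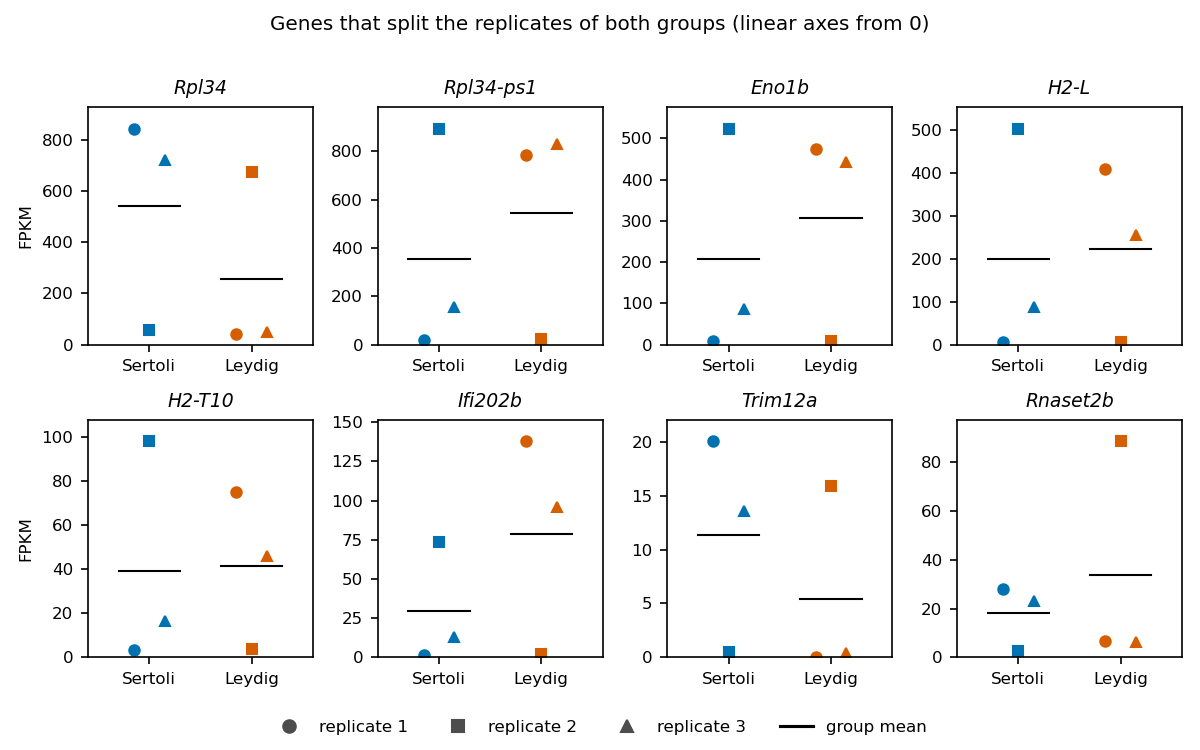
FPKM of 8 genes in each library, with Sertoli libraries on the left and Leydig libraries on the right of each panel, marker shapes for replicates and a line at the group mean. Sertoli replicate 2 and Leydig replicates 1 and 3 were on one side in every panel, opposite Sertoli replicate 1 and Leydig replicate 2, as for Rpl34-ps1 at 895, 784 and 830 FPKM against 19.6 and 24.6 FPKM.

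Sertoli and Leydig libraries differed widely and almost evenly in both directions. A gene was called when limma's adjusted p was under 0.05 and its log2 difference in FPKM + 1, Sertoli minus Leydig, was at least 1 in size. By that rule 811 genes were higher (7.03% of those tested) and 834 lower (7.23%) in Sertoli libraries, 14.3% in either direction, and the median log2 difference of all tested genes was 0.09. Without Sertoli replicate 3 the counts were 701 higher and 694 lower. At an unadjusted p under 0.05 in limma there were 4981 of the 11538 tested genes in either direction. These shares of all tested genes are the background for the counts of list members below. The 3 libraries of one group lay wholly above those of the other in 48.3% of genes (28.9% with Sertoli higher, 19.5% with Sertoli lower), including 808 of the 811 and 831 of the 834. For most genes named below the naming rule required such separation, so its mention there is a description only. Of genes at 1 FPKM or more in all 6 libraries, 480 were higher and 572 lower out of 10161. Genes that passed the filter in one group alone had to differ to be tested, and held 218 of the higher calls (299 genes seen in Sertoli libraries alone) and 169 of the lower calls (220 genes seen in Leydig libraries alone). A difference of 4 or more on the log2 scale was reached by 34 genes called higher and 57 called lower. In bulk RNA, fewer cells of a type and less RNA of a gene per cell cannot be told apart, and this holds for every difference below.

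**Figure D2:**
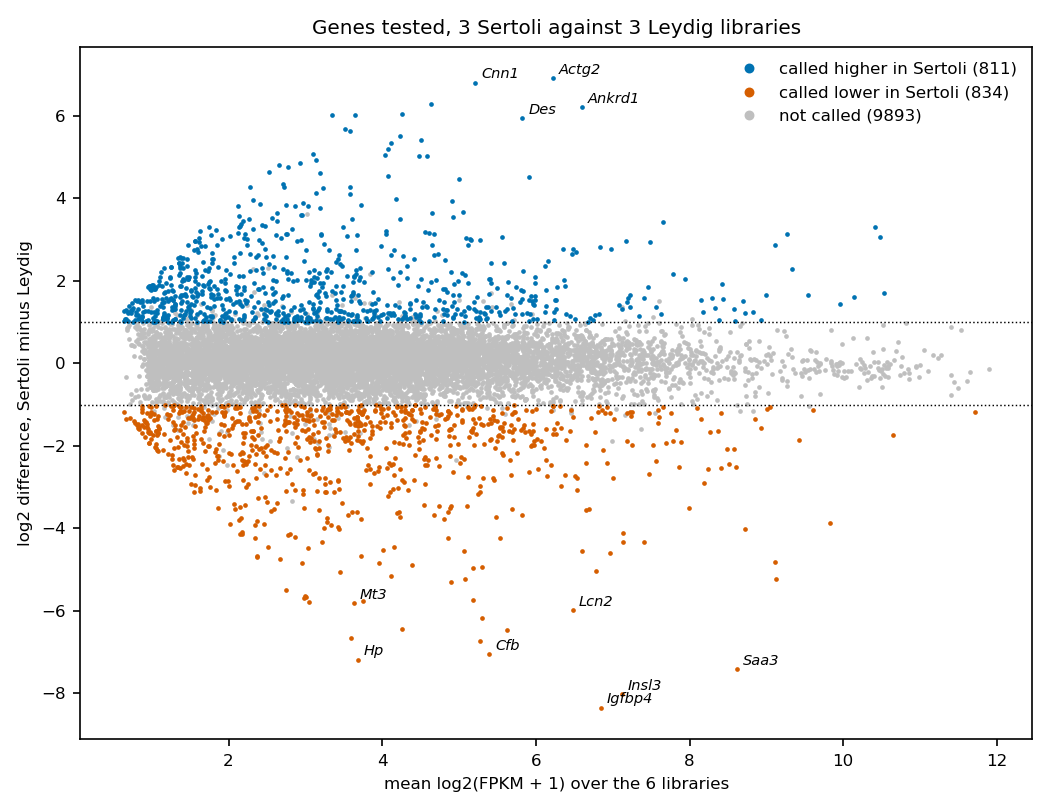
Log2 difference of each tested gene (Sertoli minus Leydig, vertical) against its mean log2(FPKM + 1) over the 6 libraries (horizontal), with 811 genes called higher in Sertoli in blue, 834 called lower in orange and the rest in grey. Named points are among the genes at either extreme, from Actg2 at 6.91 down to Igfbp4 at -8.34, and dotted lines mark differences of 1 and -1.

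The defining transcription factors of Sertoli cells separated the groups in part. Sox9, which commits the gonad to the testis, had 56.8, 43.05 and 47.3 FPKM in Sertoli and 1.18, 2.68 and 2.0 FPKM in Leydig libraries. All Sertoli libraries were high and all Leydig libraries near the floor (log2 difference 4.11, SE 0.22, adjusted p = 0.000107). Dmrt1, which keeps Sertoli cells from turning towards an ovarian fate, had 21.3, 21.7 and 17.9 FPKM in Sertoli and 0, 0.05 and 0.28 FPKM in Leydig libraries (log2 difference 4.27, SE 0.15, adjusted p = 3.39e-05). Of the 16 tested members of the Sertoli transcription factor list, 5 were called higher and 1 lower, with a median of 0.15. The others called higher were Rhox5 (log2 difference 1.90), Gata1 (1.53) and Sox8 (1.16), named after their values were seen. The member called lower was Tcf21, a factor of gonadal stroma as well as of fetal Sertoli cells, with 75.7, 97.9 and 76.02 FPKM in Sertoli and 345, 794 and 291 FPKM in Leydig libraries (log2 difference -2.37, SE 0.37, adjusted p = 0.00424). Wt1, Gata4 and Nr5a1, named above for the somatic cells from which both types descend, were not called. Wt1 had 16.7, 54.4 and 20.4 FPKM in Sertoli and 42.2, 26.7 and 23.5 FPKM in Leydig libraries, with overlapping groups (log2 difference -0.16, adjusted p = 0.813). Sertoli replicate 2 was the highest of the 6, and the sign turned without Sertoli replicate 1 or 3 or Leydig replicate 1. Gata4 stood at 76.7 ± 11.8 FPKM in Sertoli and 62.7 ± 14.1 FPKM in Leydig libraries (SD, n = 3 each, log2 difference 0.30, adjusted p = 0.275). Nr5a1, the steroidogenic factor of both cell types, was at 46.5 ± 3.17 FPKM in Sertoli and 65.2 ± 3.0 FPKM in Leydig libraries (SD, n = 3 each), a log2 difference of -0.48 whose adjusted p of 0.0186 passed but whose size did not reach the threshold.

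Other genes known from Sertoli cells were near the floor. Amh, anti-Müllerian hormone, which fetal and immature Sertoli cells make and which falls at puberty, had 0.61, 0.62 and 0.51 FPKM in Sertoli and 0.13, 0.23 and 0.07 FPKM in Leydig libraries and was below the filter. Fshr, the receptor for follicle-stimulating hormone, had 2.66, 1.15 and 1.47 FPKM in Sertoli and 0.02, 0.16 and 0.02 FPKM in Leydig libraries, with all Sertoli libraries above all Leydig libraries at a low level (log2 difference 1.34, SE 0.22, adjusted p = 0.00513). On the Leydig side 2 defining genes were below the filter. Cyp17a1, which makes androgen precursors, was listed at 0 in all 3 Sertoli libraries and had 0.03, 0 and 0.12 FPKM in Leydig libraries. Lhcgr, the receptor for luteinizing hormone, was likewise listed at 0 in Sertoli libraries and had 0.19, 0.13 and 0.24 FPKM in Leydig libraries. Of the defining markers, the Sertoli libraries thus held Sox9, Dmrt1 and Cldn11 with little Amh, and the Leydig libraries Insl3, Cyp11a1 and Hsd3b1 with next to no Cyp17a1 or Lhcgr. Sox9, Dmrt1 and Cldn11 were not confined to Sertoli libraries. PTM libraries held them at 36.6 ± 21.4, 16.6 ± 9.68 and 255 ± 199 FPKM (SD, n = 3 each). The Sertoli means were 49.0, 20.3 and 158 FPKM. The part of Sertoli cells in the PTM values was not tested.

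**Figure D3:**
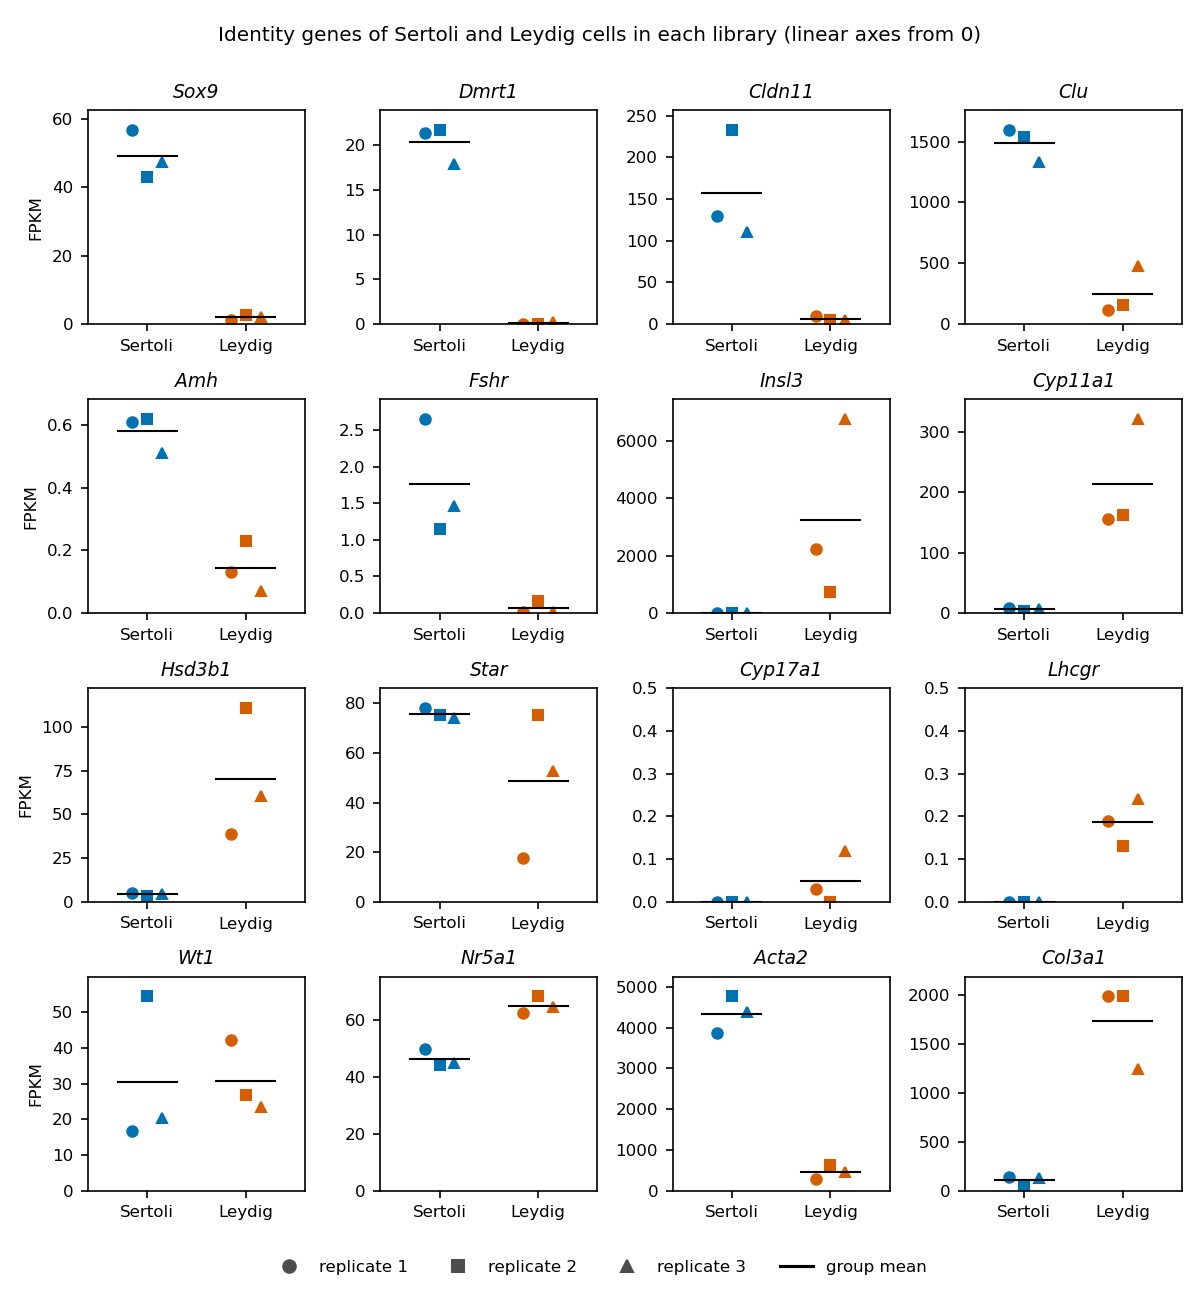
FPKM of 16 identity genes in each library on linear axes from 0, Sertoli libraries on the left of each panel and Leydig libraries on the right, with marker shapes for replicates and a line at the group mean. Sox9, Dmrt1, Cldn11 and Clu were high in Sertoli libraries, Insl3, Cyp11a1 and Hsd3b1 in Leydig libraries, while Star and Wt1 overlapped and Amh, Cyp17a1 and Lhcgr stayed below 1 FPKM in all 6 libraries.

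Secreted and metabolic products of Sertoli cells were mostly higher in the Sertoli libraries. Of 29 tested members, 20 were called higher and 4 lower, with a median of 1.98, beside 7.03% and 7.23% and a median of 0.09 among all genes tested. Cst12, a cystatin (protease inhibitor) of the testis and epididymis, had 114, 187 and 94.7 FPKM in Sertoli and 0.71, 2.13 and 2.96 FPKM in Leydig libraries (log2 difference 5.52, SE 0.37, adjusted p = 0.000196). Defb36, a beta-defensin whose close relatives may share its reads, had 165, 166 and 116 FPKM in Sertoli and 2.04, 3.75 and 1.93 FPKM in Leydig libraries (log2 difference 5.41, SE 0.24, adjusted p = 5.9e-05). Gatm, which makes the precursor of creatine, had 100.2, 148 and 87.8 FPKM in Sertoli and 1.07, 1.87 and 2.4 FPKM in Leydig libraries (log2 difference 5.34, SE 0.26, adjusted p = 8.03e-05). In each of the 3 genes every Sertoli library was above every Leydig library, as the rule for naming genes required, and Sertoli replicate 2 was the highest or level with the highest. Tex19.2 followed with 42.5, 78.05 and 35.8 FPKM in Sertoli libraries and less than 1 FPKM in every Leydig library (log2 difference 5.09). Clu, clusterin, the main glycoprotein secreted by Sertoli cells, was abundant in both groups with 1598, 1542 and 1336 FPKM in Sertoli and 112, 157 and 481 FPKM in Leydig libraries (log2 difference 2.86, SE 0.50, adjusted p = 0.00657). Leydig replicate 3 was the highest of the Leydig libraries.

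In the same list, 4 members were called lower. Kitl, the ligand of the receptor Kit on spermatogonia, had 15.4, 16.7 and 14.9 FPKM in Sertoli and 44.6, 50.3 and 55.9 FPKM in Leydig libraries (log2 difference -1.62, SE 0.13, adjusted p = 0.000364). Cxcl12, a chemokine that retains stem cells, had 101, 43.2 and 95.3 FPKM in Sertoli and 322, 170.4 and 391 FPKM in Leydig libraries (log2 difference -1.88, adjusted p = 0.0167), a call lost without Leydig replicate 1 or 3. Inhbb, the inhibin beta-B chain, had 21.9, 23.9 and 19.1 FPKM in Sertoli and 120.0, 126 and 32.9 FPKM in Leydig libraries, with Leydig replicate 3 far below the other 2 Leydig libraries (log2 difference -1.84, SE 0.50, adjusted p = 0.032). That call was lost without any single Sertoli library and without Leydig replicate 1 or 2. The last was the ferritin receptor Scara5 (-1.89), named after its value was seen. The number called lower was 2 without Sertoli replicate 1 or 3 or Leydig replicate 3 and 1 without Leydig replicate 1.

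Of 18 tested junction genes of the tubule, 9 were called higher and 1 lower in Sertoli libraries, and 8 were not called (median 1.04). Cldn11, the claudin of the blood-testis barrier, had 129, 233 and 110.2 FPKM in Sertoli and 9.2, 4.64 and 4.38 FPKM in Leydig libraries (log2 difference 4.47, SE 0.35, adjusted p = 0.000365). Cdh3, P-cadherin, had 63.9, 36.6 and 59.5 FPKM in Sertoli and 1.16, 2.9 and 1.35 FPKM in Leydig libraries (log2 difference 4.29, SE 0.30, adjusted p = 0.000223). Jam2, a junctional adhesion molecule, had 46.1, 107 and 48.7 FPKM in Sertoli and 5.06, 6.45 and 2.91 FPKM in Leydig libraries (log2 difference 3.49, SE 0.38, adjusted p = 0.0011). Sertoli replicate 2 was the highest Sertoli library for Cldn11 and Jam2 and the lowest for Cdh3, while all Leydig libraries stayed below 10 FPKM. The tight junction protein cingulin (Cgn) was far higher in Sertoli replicate 2 than in the other Sertoli libraries, with 6.95, 50.1 and 11.8 FPKM in Sertoli and 0.43, 0.61 and 1.08 FPKM in Leydig libraries (log2 difference 3.36, SE 0.64, adjusted p = 0.00932). Its call was kept with each library left out in turn. Gja1, connexin 43, the main gap junction protein of the tubule, went the other way with 2.52, 2.43 and 2.22 FPKM in Sertoli and 15.9, 25.8 and 21.8 FPKM in Leydig libraries (log2 difference -2.68, SE 0.18, adjusted p = 0.000215), all Leydig libraries being above all Sertoli libraries. Of the list, 9 members did not pass the filter, among them the barrier genes Ocln, Cldn3 and Cldn5.

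Genes of steroid synthesis were lower in Sertoli than in Leydig libraries where they were called. Of 18 tested, 0 were called higher and 8 lower (median -0.80). In limma 1 member was higher and 13 were lower at an unadjusted p under 0.05. Cyp11a1, which carries out the first step from cholesterol, had 7.86, 2.82 and 7.0 FPKM in Sertoli and 156, 163 and 322 FPKM in Leydig libraries (log2 difference -4.97, SE 0.40, adjusted p = 0.00041). Hsd3b1, the next dehydrogenase, had 5.19, 3.34 and 4.62 FPKM in Sertoli and 38.98, 111 and 60.4 FPKM in Leydig libraries (log2 difference -3.61, SE 0.37, adjusted p = 0.000883). Both were at least 10 times lower in every Sertoli library than in the Leydig mean. Star, the carrier of cholesterol into mitochondria that sets the pace of steroid synthesis, did not follow them, with 78.2, 75.2 and 74.02 FPKM in Sertoli and 17.8, 75.1 and 52.6 FPKM in Leydig libraries. Sertoli libraries were within a narrow range, Leydig replicate 1 was far lower, and Leydig replicate 2 was level with the Sertoli libraries (log2 difference 0.85, adjusted p = 0.216).

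Further members of this list were lower in every Sertoli library. Hsd11b1, which interconverts cortisone and cortisol-type glucocorticoids, had 0.71, 1.45 and 1.07 FPKM in Sertoli and 147, 192 and 193 FPKM in Leydig libraries (log2 difference -6.43, SE 0.18, adjusted p = 1.96e-05). Akr1cl, an aldo-keto reductase, had 40.4, 26.7 and 33.1 FPKM in Sertoli and 432, 720.4 and 636 FPKM in Leydig libraries (log2 difference -4.11, SE 0.23, adjusted p = 0.000126), and the Leydig libraries were the highest by far. Cyp11b1, a hydroxylase known from the adrenal cortex, had 0.29, 0.16 and 0.24 FPKM in Sertoli and 17.7, 12.6 and 16.3 FPKM in Leydig libraries (log2 difference -3.74, SE 0.16, adjusted p = 5.05e-05). The remaining members called lower were Akr1c14 (-3.68), Fdxr (-1.67) and Cyb5a (-1.64), the last 2 being electron donors of steroid hydroxylation. Of the 7 members below the filter, Hsd17b3, the last enzyme of testosterone synthesis, was one.

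Other Leydig markers were among the most unequal genes of the comparison. Of 16 tested, 13 were called lower and 1 higher, with a median of -4.05. Insl3, the peptide hormone that guides descent of the testis, had 7.61, 6.18 and 9.33 FPKM in Sertoli and 2228, 747 and 6770.3 FPKM in Leydig libraries (log2 difference -8.03, SE 0.72, adjusted p = 0.000565). The Leydig libraries themselves spread widely, replicate 3 being highest and replicate 2 lowest. Insl3 (chromosome 8, 71689252 to 71690577, mm10, plus strand) overlaps Jak3 there, so reads in the overlap may belong to either gene. The apolipoprotein gene Apoc1 had 0, 0.54 and 0.13 FPKM in Sertoli and 91.7, 34.97 and 527 FPKM in Leydig libraries (log2 difference -6.65, SE 0.89, adjusted p = 0.00239), with the same order of Leydig libraries. The kallikrein Klk1b24 was at 0.11 ± 0.10 FPKM in Sertoli and 76.7 ± 76.9 FPKM in Leydig libraries (SD, n = 3 each). Its neighbour Klk1b21 was at 0.13 ± 0.0945 FPKM in Sertoli and 77.9 ± 79.9 FPKM in Leydig libraries (SD, n = 3 each). Both belong to a cluster of near-identical genes, and their reads may be split between them. The member called higher was Gsta4, a glutathione transferase, with 92.4, 338 and 122 FPKM in Sertoli and 35.5, 14.99 and 49.1 FPKM in Leydig libraries (log2 difference 2.35, adjusted p = 0.0242). Its call was lost without Sertoli replicate 3 or Leydig replicate 1 or 2.

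The 3 largest differences among named genes called higher in Sertoli libraries belonged to genes of smooth muscle contraction. Of 26 tested members of the contractile list, 20 were called higher and 0 lower, with a median of 1.66. In limma 25 members were higher and 0 lower at an unadjusted p under 0.05. The 3 Sertoli libraries lay wholly above the 3 Leydig libraries in 25, beside 28.9% of all genes. Actg2, enteric smooth muscle actin, had 775, 806 and 868 FPKM in Sertoli and 2.79, 11.9 and 5.39 FPKM in Leydig libraries (log2 difference 6.91, SE 0.41, adjusted p = 0.000139). Cnn1, calponin, which binds actin filaments, had 331, 471 and 385 FPKM in Sertoli and 1.07, 3.06 and 4.09 FPKM in Leydig libraries (log2 difference 6.81, SE 0.34, adjusted p = 9.16e-05). Myh11, smooth muscle myosin heavy chain, had 193, 247 and 224 FPKM in Sertoli and 0.86, 3.29 and 1.79 FPKM in Leydig libraries (log2 difference 6.30, SE 0.30, adjusted p = 7.39e-05). For these 3 genes all Sertoli libraries were at 192.7 FPKM or more and all Leydig libraries at or below 11.9 FPKM.

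Acta2, smooth muscle actin, was among the most abundant of all genes in the Sertoli libraries, with 3863, 4762 and 4369 FPKM in Sertoli and 278, 645 and 455 FPKM in Leydig libraries (log2 difference 3.31, SE 0.30, adjusted p = 0.000559). It was the top gene of Sertoli replicate 3 by FPKM, and transgelin (Tagln), an actin-binding protein of smooth muscle, was the top gene of Sertoli replicate 2. Des, the intermediate filament desmin, had 455, 405 and 473 FPKM in Sertoli and 4.98, 6.5 and 7.24 FPKM in Leydig libraries (log2 difference 5.95, SE 0.15, adjusted p = 1.31e-05). Casq2, a calcium store protein of muscle, had 121, 38.3 and 115 FPKM in Sertoli and 0.10, 0.22 and 0.53 FPKM in Leydig libraries, with Sertoli replicate 2 at the lowest level of the 3 (log2 difference 6.01, SE 0.44, adjusted p = 0.000267). Contractile genes are the usual markers of myoid cells, and the sum of the 30 list members was 17412, 22022 and 19384 FPKM in Sertoli libraries and 3762, 5235 and 4899 FPKM in Leydig libraries. Acta2 was at 1605 ± 115 FPKM in PTM, 2366 ± 87.01 in VSMC, 2404 ± 77.8 in ISMC and 2217 ± 43.8 FPKM in TSMC libraries (SD, n = 3 each). The Sertoli libraries were thus above the myoid cell libraries themselves and above all 3 kinds of smooth muscle in Acta2, and the part of myoid cells in the contractile result was not tested.

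Regulators of smooth muscle transcription moved less. Of 15 tested, 6 were called higher and 1 lower (median 0.75). In limma 10 members were higher and 1 lower at an unadjusted p under 0.05. The 6 were Mef2c (log2 difference 1.77), Heyl (1.76), Foxc1 (1.62), Gata6 (1.58), Foxc2 (1.36) and Myocd (1.23), named after their values were seen. All 6 were below 10 FPKM in every Sertoli and Leydig library. The lower one was Klf15, a zinc finger factor that restrains smooth muscle and heart growth, with 1.3, 1.44 and 1.44 FPKM in Sertoli and 17.8, 12.9 and 13.8 FPKM in Leydig libraries (log2 difference -2.72, SE 0.15, adjusted p = 0.000119). Serum response factor binds the CArG box in the promoters of many contractile genes. Its own gene Srf was not called (log2 difference 0.75). Its adjusted p of 0.0187 in limma passed, but the size did not reach the threshold. In the 250 bases before the RefSeq start site (GRCm38.p6), a CArG box on either strand was found in 6 of the 26 contractile members with a window (23.1%), beside 1.40% of 27025 windows of all genes and 1.24% of those of tested genes. Of 16 called members with a window, 4 held one, and their windows are shown. Whether the box has a part in the differences in level was not tested. The CArG box is in capitals.
Myl9: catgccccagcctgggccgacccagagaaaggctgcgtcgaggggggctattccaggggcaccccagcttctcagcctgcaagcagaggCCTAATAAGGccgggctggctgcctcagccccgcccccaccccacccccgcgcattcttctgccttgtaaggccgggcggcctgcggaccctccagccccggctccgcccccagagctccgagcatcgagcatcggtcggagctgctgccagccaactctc
Cnn2: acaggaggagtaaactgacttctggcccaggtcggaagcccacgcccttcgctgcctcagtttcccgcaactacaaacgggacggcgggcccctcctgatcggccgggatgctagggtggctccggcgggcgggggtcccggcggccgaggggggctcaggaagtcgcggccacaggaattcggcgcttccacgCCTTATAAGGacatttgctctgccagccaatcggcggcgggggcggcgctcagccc
Vcl: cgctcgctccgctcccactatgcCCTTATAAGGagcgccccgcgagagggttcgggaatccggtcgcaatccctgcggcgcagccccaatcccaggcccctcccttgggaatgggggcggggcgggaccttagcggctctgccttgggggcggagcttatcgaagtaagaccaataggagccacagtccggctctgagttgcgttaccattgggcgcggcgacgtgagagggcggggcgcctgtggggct
Ldb3: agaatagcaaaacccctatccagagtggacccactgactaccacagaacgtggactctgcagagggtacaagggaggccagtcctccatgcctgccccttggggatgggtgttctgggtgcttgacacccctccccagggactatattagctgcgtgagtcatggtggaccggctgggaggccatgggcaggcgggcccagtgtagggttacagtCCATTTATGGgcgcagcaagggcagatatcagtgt
These 4 genes (shown for the motif, not for their values) differed by 1.66 (Myl9, a myosin light chain), 1.32 (Cnn2, a calponin), 1.54 (Vcl, vinculin) and 2.13 (Ldb3, a Z-disc protein) on the log2 scale. Myl9's window is chr2:156775214-156775463 (plus strand), Cnn2's chr10:79988350-79988599 (plus strand), Vcl's chr14:20929148-20929397 (plus strand) and Ldb3's chr14:34588682-34588931 (minus strand). Acta2, Cnn1, Des and Casq2 had no match to the pattern searched in this window. Matches farther away, and boxes that depart from the pattern by a base, were not looked for. Actg2, Myh11 and Tagln were not among the members with a window. The other 2 matches, in Acta1 and Actc1, belong to genes below the filter.

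Genes of loose connective tissue fibroblasts were lower in Sertoli libraries. Of 23 tested, 19 were called lower and 1 higher (median -2.37). Dcn, decorin, a small proteoglycan of collagen fibres, had 18.9, 84.8 and 30.8 FPKM in Sertoli and 444, 897 and 1108 FPKM in Leydig libraries (log2 difference -4.33, SE 0.58, adjusted p = 0.00234). Col3a1, the fibrillar collagen III chain, had 141, 61.05 and 133 FPKM in Sertoli and 1983, 1983 and 1241 FPKM in Leydig libraries (log2 difference -4.0, SE 0.36, adjusted p = 0.000559). Cd34, a surface marker of stromal fibroblasts as well as vessels, had 1.8, 4.52 and 2.7 FPKM in Sertoli and 98.8, 166 and 89.03 FPKM in Leydig libraries (log2 difference -4.89, SE 0.32, adjusted p = 0.000181). The Leydig libraries were high and of like size in the last 2 genes, whereas Sertoli replicate 2 was the highest Sertoli library for Dcn and the lowest for Col3a1.

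The surface antigen Ly6a was at 91.4 ± 16.9 FPKM in Sertoli and 3431 ± 629 FPKM in Leydig libraries (SD, n = 3 each). Ly6c1 had 1.65, 6.25 and 1.75 FPKM in Sertoli and 446, 372 and 383 FPKM in Leydig libraries (log2 difference -6.74, SE 0.38, adjusted p = 0.000126). Both belong to a family of similar genes, so their reads may be shared. Dpep1, a membrane dipeptidase, had 5.8, 5.56 and 6.44 FPKM in Sertoli and 169, 152 and 161 FPKM in Leydig libraries and the tightest libraries of the list (log2 difference -4.55, SE 0.11, adjusted p = 1.31e-05). Pdgfra, the receptor of platelet-derived growth factor that marks stromal and Leydig precursors, had 19.7, 24.2 and 20.8 FPKM in Sertoli and 145, 95.8 and 106 FPKM in Leydig libraries (log2 difference -2.35, SE 0.18, adjusted p = 0.000346). The member called higher was Thy1, a surface glycoprotein, with 26.2, 6.42 and 26.4 FPKM in Sertoli and 0.97, 0.82 and 0.52 FPKM in Leydig libraries (log2 difference 3.33, SE 0.50, adjusted p = 0.00379). Summed over the 24 list members, FPKM was 1874, 1255 and 1771 in Sertoli libraries and 10311, 10925 and 8492 in Leydig libraries, and the part of fibroblasts in these differences was not tested.

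Matrix genes split in both directions. Among basement membrane genes 7 were called higher and 3 lower of 22 tested (median 0.17). The number called higher was 3 without Sertoli replicate 3 or Leydig replicate 1, and the number called lower was 6 without Sertoli replicate 2 and 5 without Leydig replicate 1. Lamc3, a laminin gamma chain, had 11.6, 16.8 and 13.7 FPKM in Sertoli and 1.93, 2.01 and 4.64 FPKM in Leydig libraries (log2 difference 2.02, SE 0.28, adjusted p = 0.00287). Agrin (Agrn) had 24.3, 27.1 and 24.5 FPKM in Sertoli and 11.6, 11.8 and 7.91 FPKM in Leydig libraries (log2 difference 1.22, SE 0.17, adjusted p = 0.0027). In both genes the Sertoli libraries were close together and all above the Leydig libraries. Col4a1, the common collagen IV chain, was at 550.2 ± 32.3 FPKM in Sertoli and 273 ± 44.3 FPKM in Leydig libraries (SD, n = 3 each), a log2 difference of 1.02. That call was lost in 5 single settings: without Sertoli replicate 2, without Sertoli replicate 3, without Leydig replicate 1, under median log-ratio scaling, or with array weights. Col4a3, a chain of the mature tubule membrane, was at 23.6 ± 7.01 FPKM in Sertoli and 9.05 ± 3.42 FPKM in Leydig libraries (SD, n = 3 each, log2 difference 1.30, not called without Sertoli replicate 1 or 3 or Leydig replicate 1 or 2). In the 3 members called lower, every Leydig library was above every Sertoli library, as the rule for naming genes required. Among the members called lower, the laminin alpha chain Lama4 was at 6.67 ± 3.56 FPKM in Sertoli and 50.6 ± 11.6 FPKM in Leydig libraries (SD, n = 3 each), a log2 difference of -2.82. Another alpha chain, Lama1, was at 3.7 ± 2.03 FPKM in Sertoli and 14.9 ± 5.13 FPKM in Leydig libraries (SD, n = 3 each, -1.79). The linker nidogen 2 (Nid2) was at 5.26 ± 1.92 FPKM in Sertoli and 20.5 ± 5.36 FPKM in Leydig libraries (SD, n = 3 each, -1.80).

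Of 27 interstitial matrix genes, 4 were called higher and 5 lower (median -0.12). Tnc, tenascin C, a matrix protein of remodelling tissue, had 131, 138 and 139.9 FPKM in Sertoli and 5.21, 1.92 and 3.12 FPKM in Leydig libraries (log2 difference 5.03, SE 0.26, adjusted p = 0.000107). Thbs1, thrombospondin 1, had 698, 258 and 677 FPKM in Sertoli and 30.4, 74.1 and 112 FPKM in Leydig libraries, with Sertoli replicate 2 well below the other Sertoli libraries (log2 difference 2.95, SE 0.56, adjusted p = 0.00932). Fibronectin (Fn1) had 140.1, 53.1 and 141 FPKM in Sertoli and 34.1, 28.9 and 41.5 FPKM in Leydig libraries, again with Sertoli replicate 2 the lowest of the Sertoli libraries. Its call (log2 difference 1.53, adjusted p = 0.0251) was lost without Sertoli replicate 1 or 3 or any single Leydig library. In the members called lower, all Leydig libraries were above all Sertoli libraries. Loxl2, which cross-links collagen, had 8.85, 12.4 and 9.91 FPKM in Sertoli and 60.9, 58.2 and 67.02 FPKM in Leydig libraries (log2 difference -2.48, SE 0.15, adjusted p = 0.000149). The cartilage collagen chain Col11a1 had 1.93, 0.31 and 1.81 FPKM in Sertoli and 11.2, 10.4 and 20.3 FPKM in Leydig libraries (log2 difference -2.70, SE 0.38, adjusted p = 0.00288).

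Proteases and their inhibitors were divided likewise: of 19 tested, 3 were called higher and 6 lower (median -0.78), and 2 and 4 without Sertoli replicate 3. Mmp2, gelatinase A, had 1.27, 2.87 and 1.74 FPKM in Sertoli and 173, 55.8 and 57.05 FPKM in Leydig libraries, Leydig replicate 1 being about 3 times the other Leydig libraries (log2 difference -4.85, SE 0.46, adjusted p = 0.000668). Adamts5, which cuts aggrecan, had 8.53, 5.23 and 7.73 FPKM in Sertoli and 59.8, 111 and 101 FPKM in Leydig libraries (log2 difference -3.46, SE 0.27, adjusted p = 0.000365). Neither gene's Sertoli libraries came near a Leydig library. On the plasminogen side, the activator urokinase (Plau) was lower in Sertoli libraries with 26.5, 13.1 and 27.04 FPKM in Sertoli and 88.8, 171 and 62.5 FPKM in Leydig libraries (log2 difference -2.16, SE 0.42, adjusted p = 0.0101). Its receptor Plaur had 100.2, 75.1 and 106 FPKM in Sertoli and 10.4, 12.8 and 12.4 FPKM in Leydig libraries (log2 difference 2.87, SE 0.17, adjusted p = 0.000136). All its Sertoli libraries were above all Leydig libraries, and Sertoli replicate 2 was the lowest of the 3.

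Among the 12 genes called lower with the largest differences were Saa3, Hp and Lcn2, which encode secreted proteins of the acute phase. The Leydig libraries differed greatly among themselves in each of these 3. The complement genes Cfb and C3, also among the 12, are given below. Saa3, a serum amyloid made outside the liver, had 18.4, 65.2 and 20.2 FPKM in Sertoli and 5496, 1178 and 20444 FPKM in Leydig libraries (log2 difference -7.40, SE 1.02, adjusted p = 0.00268), and was the most abundant gene of Leydig replicates 1 and 3. Hp, haptoglobin, which binds free haemoglobin, had 0.08, 0.12 and 0 FPKM in Sertoli and 166, 51.3 and 421 FPKM in Leydig libraries (log2 difference -7.18, SE 0.68, adjusted p = 0.000677). Lcn2, lipocalin 2, which withholds iron from bacteria, had 4.68, 30.6 and 6.8 FPKM in Sertoli and 824, 220.2 and 1953 FPKM in Leydig libraries (log2 difference -5.99, SE 0.92, adjusted p = 0.00407). In all 3 genes Leydig replicate 3 was highest and Leydig replicate 2 lowest, as for Insl3.

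Of 17 complement genes tested, 0 were called higher and 10 lower (median -1.34). In limma 1 member was higher and 11 were lower at an unadjusted p under 0.05. Cfb, factor B of the alternative pathway, had 1.52, 5.3 and 2.09 FPKM in Sertoli and 665, 267 and 632 FPKM in Leydig libraries (log2 difference -7.05, SE 0.46, adjusted p = 0.00018). C3, the central component, had 1.66, 11.1 and 3.45 FPKM in Sertoli and 448, 197 and 1125 FPKM in Leydig libraries (log2 difference -6.47, SE 0.75, adjusted p = 0.00139), in the order of Leydig libraries seen for Saa3. C4b, of the classical pathway, had 4.31, 5.47 and 3.98 FPKM in Sertoli and 203, 243 and 178 FPKM in Leydig libraries and little spread (log2 difference -5.22, SE 0.17, adjusted p = 2.42e-05). The genes of C1q, a product of macrophages, were not called and were highest in Leydig replicate 3, at log2 differences of -0.83 (C1qa), -0.78 (C1qc) and -0.46 (C1qb). Chemokine ligands had 8 members called lower and 1 higher of 14 tested (median -1.68). The number called lower was 3 without Sertoli replicate 1 or 3 and 4 without Leydig replicate 1 or 3. Cxcl5, which draws neutrophils, had 0.03, 0.26 and 0.10 FPKM in Sertoli and 194, 13.4 and 62.95 FPKM in Leydig libraries (log2 difference -5.65, SE 0.85, adjusted p = 0.00372). Ccl2, Cxcl1 and Ccl7, which draw monocytes and neutrophils, were at log2 differences of -3.52, -3.22 and -3.10. Leydig replicate 3 was highest for each, and all 3 lost their call without Sertoli replicate 1 or 3, Cxcl1 and Ccl7 also without Leydig replicate 1, and Ccl7 without Leydig replicate 3. Cx3cl1, fractalkine, was the member called higher with 39.9, 29.8 and 40.6 FPKM in Sertoli and 2.88, 3.66 and 3.48 FPKM in Leydig libraries (log2 difference 3.11, SE 0.16, adjusted p = 0.000106).

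Of 27 interferon-stimulated genes tested, 1 was called higher and 3 lower (median 0.10). Among all genes tested 14.3% were called in either direction, with a median of 0.09, so the list did not stand apart from them. The number called higher was 0 to 2 as single libraries were left out. Ifitm1, a restriction factor of the cell membrane that also marks early germ cells, had 1.12, 0.39 and 1.06 FPKM in Sertoli and 82.5, 63.9 and 180.4 FPKM in Leydig libraries (log2 difference -5.77, SE 0.39, adjusted p = 0.000199). Its relative Ifitm2 had 282, 281 and 288 FPKM in Sertoli and 914, 714 and 895 FPKM in Leydig libraries (log2 difference -1.56, SE 0.13, adjusted p = 0.000459), with high levels in all 6 libraries. Usp18, which removes the ubiquitin-like ISG15, was at 113 ± 8.61 FPKM in Sertoli and 47.3 ± 23.1 FPKM in Leydig libraries (SD, n = 3 each) and lost its call (log2 difference 1.38) without any single Sertoli library or without Leydig replicate 3. Of 16 class I MHC genes tested, 0 were called in either direction in limma, and 1 was called lower without Sertoli replicate 2. At an unadjusted p under 0.05 in limma 0 were higher and 3 lower, beside 4981 of 11538 genes in either direction. H2-L and H2-T10, which followed the split shown by Rpl34-ps1, are not among the 16.

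**Figure D4:**
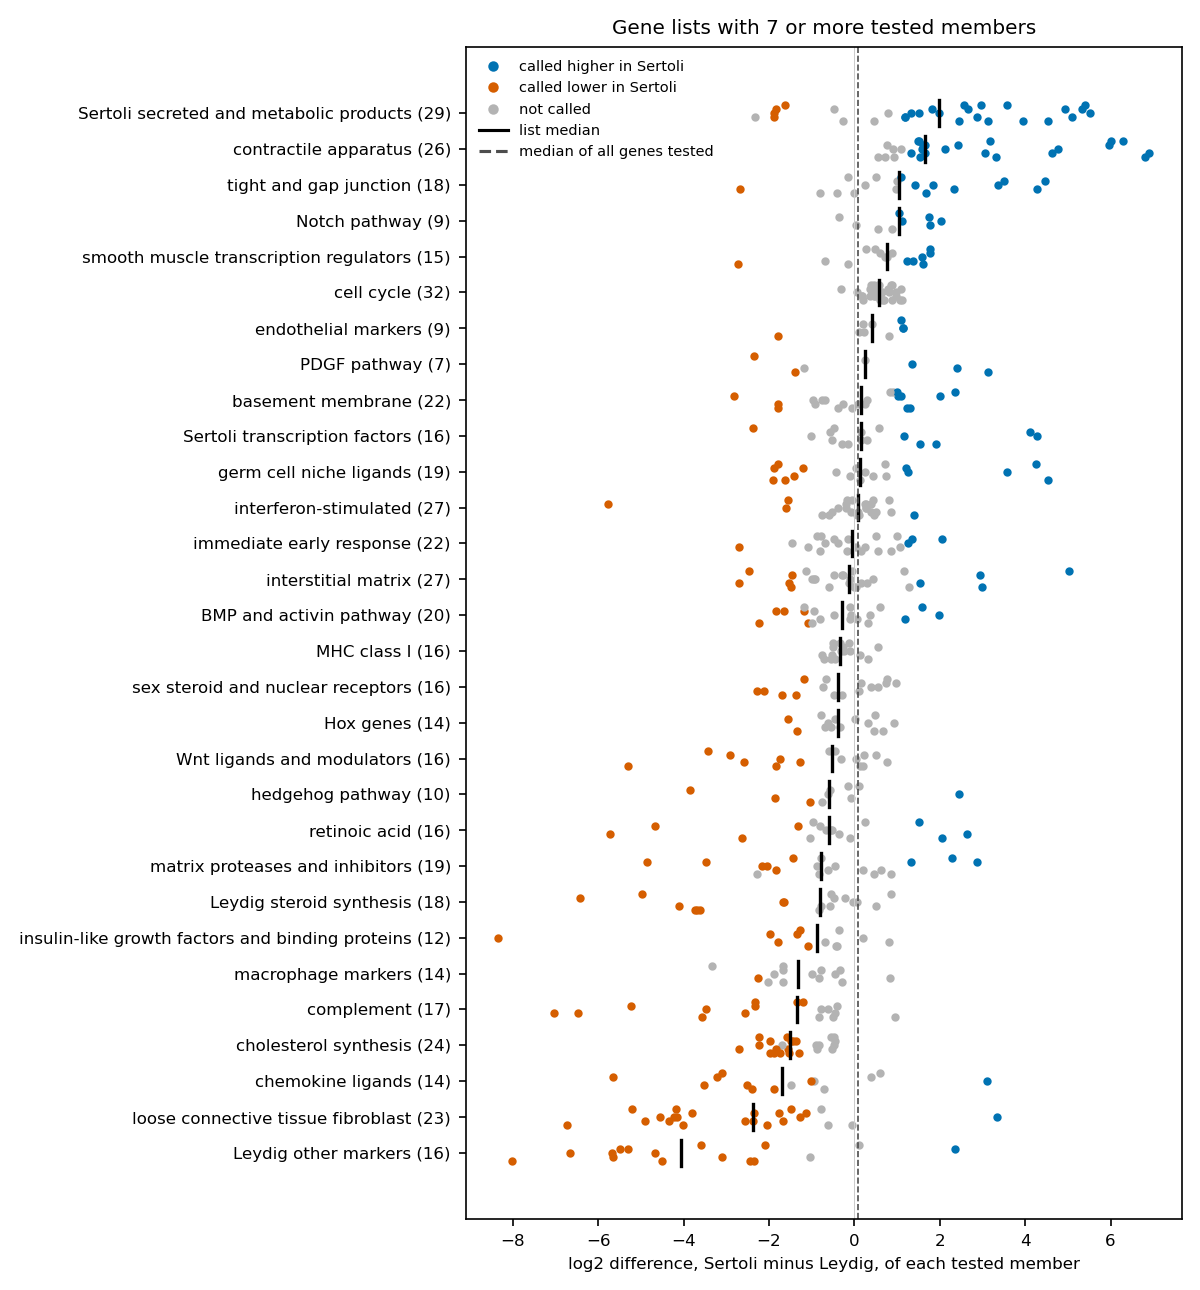
Log2 difference (Sertoli minus Leydig) of every tested member of the gene lists with 7 or more tested members, one dot a gene, blue where called higher, orange where called lower and grey where not called, with a bar at the list median and a dashed line at the median of all genes, 0.09. Sertoli products (median 1.98) and contractile genes (1.66) stood at the top, fibroblast genes (-2.37) and other Leydig markers (-4.05) at the bottom, and the number of tested members follows each name.

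Growth factors and their receptors were often divided between the cell types. The platelet-derived growth factor gene Pdgfa had 96.4, 48.3 and 88.8 FPKM in Sertoli and 5.39, 9.88 and 8.06 FPKM in Leydig libraries (log2 difference 3.14). Its relative Pdgfb was at 13.02 ± 5.49 FPKM in Sertoli and 1.66 ± 1.19 FPKM in Leydig libraries (SD, n = 3 each, log2 difference 2.41). Of their receptors, Pdgfra is given above with the fibroblast genes (-2.35). Pdgfrb was at 12.3 ± 2.27 FPKM in Sertoli and 36.3 ± 18.04 FPKM in Leydig libraries (SD, n = 3 each, -1.39), not called without any single Sertoli library or Leydig replicate 3. Of the 7 tested genes of this pathway, 3 were called higher and 2 lower, and 1 lower without any single Sertoli library or Leydig replicate 3. The hedgehog pathway was divided likewise: the ligand Dhh, by which Sertoli cells act on Leydig precursors, was the 1 member called higher (2.44, named after its value was seen). The co-receptor Gas1 had 0.92, 3.11 and 1.13 FPKM in Sertoli and 52.6, 51.4 and 16.9 FPKM in Leydig libraries (log2 difference -3.85). With Cdon (-1.86) and Boc it made 3 called lower of 10 tested. Boc was at 12.2 ± 0.86 FPKM in Sertoli and 26.5 ± 4.37 FPKM in Leydig libraries (SD, n = 3 each, log2 difference -1.04) and lost its call without Leydig replicate 2. The receptor genes Ptch1 and Smo were not called (-0.07 and -0.57).

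Ligands of the germ cell niche had 5 members called higher and 6 lower of 19 tested (median 0.14). Gdnf, which maintains spermatogonial stem cells, had 14.8, 15.99 and 12.2 FPKM in Sertoli and 0.43, 0.27 and 0.13 FPKM in Leydig libraries (log2 difference 3.58, SE 0.16, adjusted p = 5.9e-05). Tgfb3, a transforming growth factor that loosens the blood-testis barrier, had 262, 297 and 312 FPKM in Sertoli and 8.7, 17.1 and 10.2 FPKM in Leydig libraries (log2 difference 4.53, SE 0.24, adjusted p = 0.000107). Edn1, endothelin 1, a constrictor of myoid cells, had 34.3, 56.9 and 32.9 FPKM in Sertoli and 0.37, 1.88 and 1.48 FPKM in Leydig libraries (log2 difference 4.26, SE 0.33, adjusted p = 0.000354). All 3 were near the floor or under 20 FPKM in each Leydig library. Csf1, the macrophage growth factor, was abundant in both groups with 804, 543 and 787 FPKM in Sertoli and 222, 294 and 383 FPKM in Leydig libraries (log2 difference 1.26, SE 0.24, adjusted p = 0.00993). Adrenomedullin (Adm, 128 ± 47.5 FPKM in Sertoli and 522 ± 338 FPKM in Leydig libraries [SD, n = 3 each]) was lower (log2 difference -1.91, not called without Sertoli replicate 2 or 3 or Leydig replicate 2).

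The insulin-like growth factor system was lower in Sertoli libraries where it was called, with 0 called higher and 6 lower of 12 tested (median -0.88), and 3 lower without Sertoli replicate 3. In limma 1 member was higher and 7 were lower at an unadjusted p under 0.05. Igfbp4, a binding protein that holds the growth factors inactive, showed the largest difference of all named genes with 2.16, 13.5 and 4.64 FPKM in Sertoli and 1918, 2698 and 1707 FPKM in Leydig libraries (log2 difference -8.34, SE 0.52, adjusted p = 0.000163). It lies on chromosome 11, 99041260 to 99052646 (mm10, plus strand). The ligand Igf1 had 14.9, 17.2 and 14.4 FPKM in Sertoli and 70.2, 101 and 24.02 FPKM in Leydig libraries (log2 difference -1.78). Its relative Igf2 had 3.62, 5.28 and 3.18 FPKM in Sertoli and 10.02, 34.5 and 18.02 FPKM in Leydig libraries (log2 difference -1.98). Both lost their call without Sertoli replicate 3, and Igf1 also without Sertoli replicate 1 or 2 or Leydig replicate 1 or 2. Their receptor gene Igf1r was not called (0.19).

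Activin, inhibin and BMP genes had 3 members called higher and 5 lower of 20 tested (median -0.29), and 2 lower without Sertoli replicate 1 or 3 or Leydig replicate 2. Inhba, the activin A chain, had 117, 74.7 and 107 FPKM in Sertoli and 21.1, 32.7 and 19.96 FPKM in Leydig libraries (log2 difference 1.98, SE 0.25, adjusted p = 0.00181), the opposite direction to Inhbb above. Inha, the alpha chain of inhibin, was at 47.9 ± 19.7 FPKM in Sertoli and 20.04 ± 6.22 FPKM in Leydig libraries (SD, n = 3 each) with a log2 difference of 1.19 (adjusted p = 0.0358). Its call was lost without any single Sertoli library, without Leydig replicate 1 or 2 and under 3 other settings. Fst, follistatin, which binds activin, had 1.03, 2.71 and 1.29 FPKM in Sertoli and 18.1, 8.62 and 8.82 FPKM in Leydig libraries (log2 difference -2.24, SE 0.34, adjusted p = 0.00393). Wnt ligands and modulators had 0 members called higher and 7 lower of 16 tested (median -0.52), with 0 higher and 7 lower at an unadjusted p under 0.05 in limma. Sfrp2, a secreted binder of Wnt proteins, had 5.73, 1.54 and 5.2 FPKM in Sertoli and 235, 269 and 102 FPKM in Leydig libraries (log2 difference -5.31, SE 0.49, adjusted p = 0.000628). Wnt6 had 1.62, 22.8 and 4.85 FPKM in Sertoli and 95.1, 67.3 and 67.04 FPKM in Leydig libraries (log2 difference -3.42). Wnt4 had 2.02, 15.5 and 3.98 FPKM in Sertoli and 55.5, 49.97 and 18.1 FPKM in Leydig libraries (log2 difference -2.60). Both were lower, with Sertoli replicate 2 far above the other Sertoli libraries for each. Both lost their call without Sertoli replicate 3, and Wnt4 also without Sertoli replicate 1 or Leydig replicate 1 or 2.

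Of 9 tested Notch pathway genes, 5 were called higher and 0 lower (median 1.04), with 6 higher and 1 lower at an unadjusted p under 0.05 in limma, and 3 were called higher without Sertoli replicate 3. The ligand Jag1 had 18.6, 6.85 and 16.5 FPKM in Sertoli and 1.28, 2.08 and 4.53 FPKM in Leydig libraries (log2 difference 2.04, SE 0.44, adjusted p = 0.0151) and lost its call without that library. Retinoic acid genes had 3 members called higher and 4 lower of 16 tested (median -0.60). Aldh1a2, which makes retinoic acid, had 2.51, 6.98 and 3.48 FPKM in Sertoli and 488, 95.5 and 395 FPKM in Leydig libraries (log2 difference -5.73, SE 0.63, adjusted p = 0.00119), Leydig replicate 2 being the lowest Leydig library. Dhrs3, which turns retinal back to retinol, had 13.8, 50.96 and 17.5 FPKM in Sertoli and 151, 131 and 167 FPKM in Leydig libraries (log2 difference -2.63, SE 0.45, adjusted p = 0.00599). Rbp4, the carrier of retinol, was higher in Sertoli libraries with 13.9, 61.3 and 20.1 FPKM in Sertoli and 4.65, 1.27 and 5.37 FPKM in Leydig libraries (log2 difference 2.64, SE 0.61, adjusted p = 0.0187). It was more than 3-fold higher in Sertoli replicate 2 than in the other 2.

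Cholesterol synthesis, which feeds steroid production, was lower in Sertoli libraries in most of the list. Of 24 tested members, 0 were called higher and 15 lower, with a median of -1.51, and all 24 differences were negative. In limma 0 were higher and 21 lower at an unadjusted p under 0.05, and the Sertoli libraries lay wholly below the Leydig libraries in 20, beside 19.5% of all genes. Insig1, a feedback regulator of the pathway, had 7.54, 4.15 and 6.69 FPKM in Sertoli and 55.8, 36.2 and 43.2 FPKM in Leydig libraries (log2 difference -2.70, SE 0.24, adjusted p = 0.000559). Sc5d, an enzyme of the last steps, had 16.9, 7.42 and 15.7 FPKM in Sertoli and 51.7, 81.6 and 59.3 FPKM in Leydig libraries (log2 difference -2.24). Nsdhl, which removes methyl groups, had 6.91, 12.4 and 8.34 FPKM in Sertoli and 58.5, 28.7 and 56.7 FPKM in Leydig libraries (log2 difference -2.23). Leydig replicate 2 was the highest library for Sc5d and the lowest Leydig library for Nsdhl. The transcription factor Srebf2 was not called (-0.52). Summed over the 25 list members, FPKM was 267, 304 and 276 in Sertoli libraries and 1088, 612 and 911 in Leydig libraries.

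Sex steroid and nuclear receptors had 0 members called higher and 5 lower of 16 tested (median -0.39), with 5 higher and 8 lower at an unadjusted p under 0.05 in limma. The number called lower was 3 without Sertoli replicate 1 or 3, and 1 member was called higher without Sertoli replicate 1 or 2. The 5 were Esr1 (-2.28), the oestrogen receptor, Pgr (-2.12), the progesterone receptor, Thrb (-1.70), Nr2f1 (-1.36) and Nr1h3 (-1.18), named after their values were seen. Of 14 tested Hox genes, 0 were called higher and 2 lower, beside 14.3% of all genes in either direction. At an unadjusted p under 0.05 in limma 2 were higher and 5 lower, beside 4981 of 11538 genes in either direction. The number called higher was 1 without Sertoli replicate 2. Hoxd9 had 24.8, 28.8 and 24.9 FPKM in Sertoli and 75.7, 96.3 and 65.6 FPKM in Leydig libraries (log2 difference -1.55). The other was Hoxd3 at 4.0 ± 1.0 FPKM in Sertoli and 11.9 ± 3.78 FPKM in Leydig libraries (SD, n = 3 each, log2 difference -1.35).

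Growth and stress genes showed how far single libraries reached. Of 32 cell cycle genes tested, 0 were called in either direction in limma, although 31 of 32 had a positive difference (median 0.58). At an unadjusted p under 0.05 in limma 8 were higher and 0 lower, beside 4981 of 11538 genes in either direction. Summed FPKM of the list was 610.2, 1000.2 and 667 in Sertoli libraries and 772, 490.2 and 324 in Leydig libraries, and without Leydig replicate 1 the number called higher was 12. Immediate early genes had 3 called higher and 1 lower of 22 tested, beside 7.03% and 7.23% of all genes. The counts were 1 higher without Sertoli replicate 1 or 3 or Leydig replicate 1, and 5 lower without Leydig replicate 1. The transcription factor Fos had 19.97, 17.0 and 20.5 FPKM in Sertoli and 38.8, 266 and 209 FPKM in Leydig libraries (log2 difference -2.70, adjusted p = 0.0245). In it Leydig replicate 1 was closer to the Sertoli libraries than to the other Leydig libraries, and its call was lost without any single Sertoli library or without Leydig replicate 2 or 3. Fosl1 (118, 43.7 and 119 FPKM in Sertoli and 13.6, 17.0 and 33.7 FPKM in Leydig libraries, log2 difference 2.04) lost its call without Sertoli replicate 1 or 3 or Leydig replicate 1 or 2.

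Markers of macrophages, vessels, glia, fat, ducts, blood and germ cells were read as a check on the makeup of the libraries. Summed over 20 macrophage markers, FPKM was 11.99, 68.2 and 19.3 in Sertoli libraries and 132, 23.1 and 400.4 in Leydig libraries. Leydig replicate 3 was the highest and Leydig replicate 2 the lowest Leydig library, the same order as for Saa3, Hp, Lcn2, C3, Insl3 and Apoc1, and the part of macrophages in those differences was not tested. The defining macrophage gene Adgre1 stayed below 1 FPKM in all 6 libraries, and Csf1r (-2.25) was the 1 member called of 14 tested (5 lower without Leydig replicate 2 or with array weights, and 7 in a fit of all 21 libraries). Of 9 tested endothelial markers, limma called 3 higher and 1 lower (median 0.42), beside 7.03% and 7.23% of all genes tested. The 16 listed summed to 94.2 to 102.1 FPKM in Sertoli libraries and 75.3 to 125 FPKM in Leydig libraries. Esam, called higher and named after its value was seen, had 2.99, 2.86 and 3.74 FPKM in Sertoli and 1.11, 0.83 and 0.95 FPKM in Leydig libraries (log2 difference 1.09). Pecam1, the defining endothelial gene, was at 2.08 ± 0.32 FPKM in Sertoli and 0.76 ± 0.32 FPKM in Leydig libraries (SD, n = 3 each, log2 difference 0.82, not called). The 1 member called lower, the junction gene Cdh5, was at 5.71 ± 2.85 FPKM in Sertoli and 21.98 ± 9.56 FPKM in Leydig libraries (SD, n = 3 each, log2 difference -1.78, not called without Sertoli replicate 2 or 3 or Leydig replicate 1 or 2).

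Of the glial markers 2 were tested and 1, S100b, a calcium-binding protein, was called with 0.19, 0.36 and 0.13 FPKM in Sertoli and 21.3, 33.6 and 23.3 FPKM in Leydig libraries (log2 difference -4.44, SE 0.19, adjusted p = 5.9e-05). In all, 6 of the 9 listed stayed below 1 FPKM in all 6 libraries. Adipocyte markers had 1 member called lower of 3 tested, the lipase Lpl (12.1 ± 3.81 FPKM in Sertoli and 29.2 ± 14.3 FPKM in Leydig libraries [SD, n = 3 each]), a call lost without 5 of the 6 libraries in turn. Epithelial duct markers summed to 3.86, 20.7 and 7.42 FPKM in Sertoli libraries and to 0.68, 1.48 and 3.47 FPKM in Leydig libraries, with Sertoli replicate 2 highest and 0 called of 2 tested (1 higher and 0 lower at an unadjusted p under 0.05 in limma). No marker of T, B or mast cells passed the filter. Nor did one of red cells, of which only 3 of the 6 listed had FPKM values. Germ cell markers were mostly near 0. Ddx4 stayed at or below 0.40 FPKM. Prm1 was at 1.78 ± 1.22 FPKM in Sertoli and 1.52 ± 0.39 FPKM in Leydig libraries (SD, n = 3 each) with an uncalled difference of 0.06 that turned negative under median log-ratio scaling and without Sertoli replicate 3 or Leydig replicate 3. Of the listed markers, 13 of 16 spermatocyte and 13 of 20 spermatid markers were below 1 FPKM in all 6 libraries. Uchl1, a ubiquitin hydrolase of spermatogonia that somatic cells also make, was higher with 139, 97.2 and 120.2 FPKM in Sertoli and 6.73, 18.7 and 4.23 FPKM in Leydig libraries (log2 difference 3.68, SE 0.46, adjusted p = 0.00192). The spermatogonial factor Zbtb16 was lower (-1.69).

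Set beside the other groups, the genes at the extremes did not all belong to Sertoli or Leydig libraries alone. Among the 12 genes called higher with the largest differences, Ankrd1, a stretch-responsive cofactor of muscle, had 735, 975 and 812 FPKM in Sertoli and 3.52, 12.4 and 22.5 FPKM in Leydig libraries (log2 difference 6.22, SE 0.55, adjusted p = 0.000559). It stood at 179 ± 30.8 FPKM in PTM, 249 ± 6.93 in VSMC, 266 ± 8.23 in ISMC and 149 ± 2.84 FPKM in TSMC libraries (SD, n = 3 each). Mcam, an adhesion molecule of vessel walls, had 181, 105 and 192 FPKM in Sertoli and 1.53, 1.04 and 1.5 FPKM in Leydig libraries (log2 difference 6.05, SE 0.25, adjusted p = 4.98e-05). Npnt, nephronectin, a basement membrane ligand of integrins, had 86.6, 113 and 102 FPKM in Sertoli and 0.22, 0.42 and 1.19 FPKM in Leydig libraries (log2 difference 6.02, SE 0.24, adjusted p = 4.14e-05). In both genes the Leydig libraries were near the floor. Tmem184a had 58.3, 155 and 64.7 FPKM in Sertoli and 0.14, 1.16 and 0.98 FPKM in Leydig libraries, with Sertoli replicate 2 the highest (log2 difference 5.64, SE 0.42, adjusted p = 0.000298). It was below 1 FPKM on average in all 3 smooth muscle groups, but at 50.3 ± 28.9 FPKM in PTM and 4.01 ± 0.52 FPKM in germ cell libraries (SD, n = 3 each). On the Leydig side, Gpx3, a secreted glutathione peroxidase, had 3.89, 3.6 and 3.4 FPKM in Sertoli and 282, 696 and 190.3 FPKM in Leydig libraries (log2 difference -6.18, SE 0.44, adjusted p = 0.000243). Mt3, a metallothionein, had 0.21, 1.17 and 0.73 FPKM in Sertoli and 59.5, 147 and 86.9 FPKM in Leydig libraries (log2 difference -5.80, SE 0.36, adjusted p = 0.000157). Leydig replicate 2 was the highest library for both, the reverse of its place in Saa3 and Insl3.

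PTM mean FPKM was between the Sertoli and the Leydig mean in 527 of the 811 genes called higher (65.0%) and in 642 of the 834 called lower (77.0%), a description of means with no test. It was above both means in 240 and 59 of these genes, and below both in 44 and 133. Insl3 was at 3647 ± 1394 FPKM in PTM libraries, Cyp11a1 at 299.96 ± 94.9 FPKM, Gatm at 169.5 ± 116 FPKM and Cst12 at 171 ± 111 FPKM (SD, n = 3 each). In these 4 genes the PTM mean was above both the Sertoli and the Leydig mean. Mean Pearson's r with PTM libraries was 0.937 for Sertoli and 0.899 for Leydig libraries across the tested genes.

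**Figure D5:**
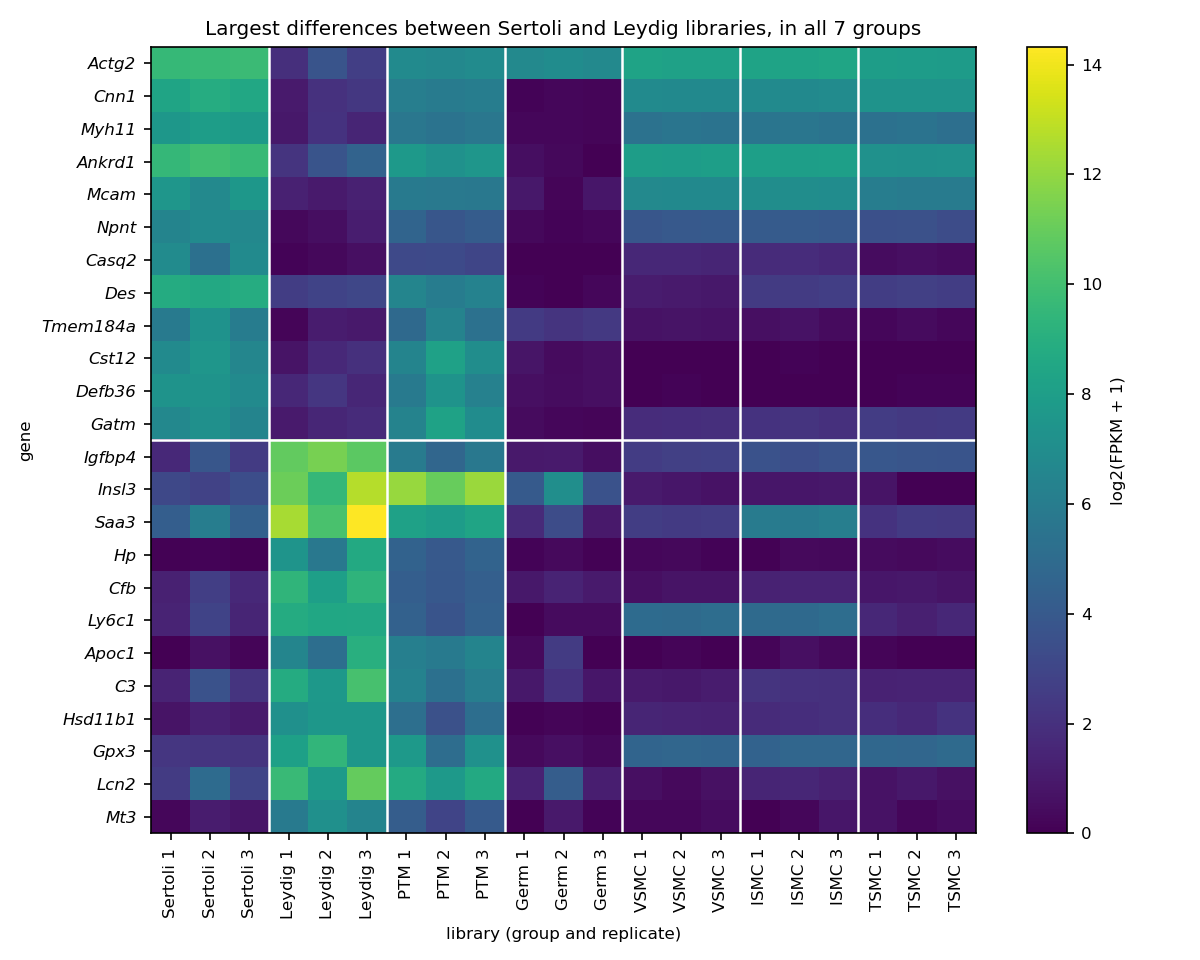
Log2(FPKM + 1) of the 12 genes called higher (above the white line) and the 12 called lower with the largest differences, in all 21 libraries, with Sertoli and Leydig libraries at the left. Actg2, Cnn1, Ankrd1 and Mcam were bright in the smooth muscle libraries too, Cst12, Defb36 and Gatm were of like brightness in PTM and Sertoli libraries, and in the lower block Insl3 was of like brightness in PTM and Leydig libraries.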

How the data were processed

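Total RNA of 3 Sertoli and 3 Leydig cell libraries was sequenced, and the authors deposited 1 table of gene values in FPKM for all 21 libraries. HISAT2 2.0.4, Bowtie2 2.2.5 and RSEM 1.2.12 with the mouse build mm10 were used, per the submitters' processing notes, which give no roles. No read counts were used here, so the depth of each library was inferred from the steps between low FPKM values. The table lists 22135 genes, of which 2850 have no FPKM, and 27 symbols that had turned into dates were restored from their gene numbers. The 8 columns of group means were not used.

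Genes with at least 1 FPKM in 3 of the 6 libraries were tested with limma 3.58.1 in R 4.3.3 on log2(FPKM + 1), with a mean-variance trend, as Sertoli minus Leydig, two-sided, without covariates. P-values were adjusted by Benjamini-Hochberg over all 11538 genes, and a gene was called at an adjusted p under 0.05 and a log2 difference of at least 1 in size. The pseudocount of 1 understates the change of low genes. With 3 libraries a group, 4 residual degrees of freedom limit the precision. The procedure was run on simulated data with independent noise in each gene and library. Those data lack the patterns among libraries described above, so the run does not bear on them. Gene lists were described by counts and medians, without a test. Genes and lists were chosen with earlier results of these data known. Named genes are the 12 of each direction with the largest differences among called genes whose groups do not overlap and whose higher mean is at least 10 FPKM, leaving out model numbers, up to 4 per list and direction by the same conditions, and a fixed set of identity genes. Lists share some genes. Promoter windows are the 250 bases before each RefSeq start (GRCm38.p6), available for 27025 genes, and further motifs searched on both strands were an SF-1 site (AAGGTCA) and an interferon response-like element. Alternatives were another pseudocount, no filter, quantile or median log-ratio scaling, a fit of all 21 libraries, array weights, a replicate block and leaving out each library. All but the one without a filter tested the same genes. The deposited strand setting of the counting is not given in the sources used here, so overlapping genes are uncertain. A few list members are not reported here by name.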

Additional observations from a re-analysis of the deposited data

How the results depend on the processing

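The counts of 811 genes higher and 834 lower in Sertoli libraries stayed within 1.5 times in every alternative run. With each library left out in turn they were 701 to 833 higher and 694 to 884 lower, both lowest without Sertoli replicate 3, and 188 to 232 list members were called, against 232 with all libraries. They were 1003 and 968 with a pseudocount of 0.1, 783 and 789 without a filter (17469 genes), 742 and 892 with quantiles made equal, 695 and 933 after median log-ratio scaling, 881 and 910 in a fit of all 21 libraries, and 909 and 953 with array weights, whose estimate stopped before it converged. The fit with the copy pattern of Rpl34-ps1 and Rpl34 as a term, chosen after seeing the data, called 856 and 833. The replicate numbers did not pair the libraries: deviations of same-numbered libraries correlated at -0.28, -0.39 and -0.07, and the fit with the replicate block called 757 higher and 782 lower and 219 list members. Of 132 named genes tested, 100 kept direction and call in all settings. Of 126 called ones, 28 lost the call without at least 1 library (26 without Sertoli replicate 3) and 15 under at least 1 other setting. The difference of Wt1, -0.16, became 0.13 with the copy pattern term and ranged over -0.66 to 0.16 with single libraries left out. That of Prm1, 0.06, became -0.0255 after median log-ratio scaling and -0.0202 with the copy pattern term, and ranged over -0.27 to 0.31 with single libraries left out. The cause was not tested for either. Pecam1 was called with a pseudocount of 0.1 (log2 difference 1.40). FPKM near 0 leaves few reads, so folds of genes close to absent in one group depend on the pseudocount, and reads of near-identical genes may be shared.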

Other observations

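In the 250 bases before the start site, the SF-1 site AAGGTCA was found in 1 of 15 windows of the steroid synthesis list (6.67%), beside 3.996% of all windows. The interferon response-like element was found in 10 of 22 windows of the interferon-stimulated list (45.5%), beside 3.08% of all windows, and Ifitm2 was the 1 called member that held it. Nnt, a mitochondrial transhydrogenase gene, followed the split of the libraries shown by Rpl34-ps1 at lower contrast, with 6.81, 13.8 and 8.09 FPKM in Sertoli libraries and 22.9, 9.08 and 17.2 FPKM in Leydig libraries. The genes that stood at least 2-fold apart from both other libraries of their group were most frequent in Sertoli replicate 2, with 332 above and 195 below, and rarest in Sertoli replicate 3, with 0 above and 2 below. Sertoli replicate 2 was at least 2-fold above both others in 8.76% of genes called higher in Sertoli libraries, 6.36% of those called lower and 2.10% of those not called.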
